A study of Mus musculus with 24 samples.

Results

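To assess whether the choroid of Ceacam1-/- mice responded to laser in another way than that of wild type mice, the difference between both laser effects was computed in all 24 choroidal RNA libraries of the series. Libraries were grouped by their titles. Of these, 9 came from wild type mice with laser, 7 from Ceacam1-/- mice with laser, 4 from wild type mice without laser and 4 from Ceacam1-/- mice without laser. The interaction of a gene was defined as its log2 laser effect in Ceacam1-/- mice minus its log2 laser effect in wild type mice, so that a value above 0 means that laser raised the gene more, or lowered it less, in the knockout. Normalized counts, which the authors deposited, are estimated reads of a gene divided by factors for the size of the library and the length of the transcripts, and 1 was added before the log2 transformation. Of 56065 genes, 40409 were above 0 in at least 1 library and 19950 had a mean of at least 10 over the 24 libraries and were tested. Sums over all genes of 1 library lay between 23704346 and 35094410, and between 25021 and 27964 genes per library were above 0.

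The study's methods describe its mice as young adult littermates of both sexes on a C57BL/6J background from heterozygous parents, with a homozygous germline deletion at the start of Ceacam1 in the knockouts, which every cell type carries. In the laser groups, spots were placed in both eyes with a frequency-doubled Nd:YAG laser, a model in which Bruch's membrane is broken and new choroidal vessels grow beneath the retina. The time between laser and tissue collection and the sex of each mouse are not given in the sources used here. The study's flow cytometry methods use the word choroid for the complex of retinal pigment epithelium (RPE), choroid and sclera that is left when the retina is lifted off. Total RNA was amplified as full-length cDNA. Nothing in the labels says that libraries of a group came from separate animals. The study's volcano plot legend counts 4 wild type and 4 Ceacam1-/- mice, the numbers of libraries without laser here. No count of mice with laser is given there. P-values therefore describe the spread between these libraries, which may be partly technical.

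CEACAM1 is an adhesion molecule of endothelial, epithelial and myeloid cells whose cytoplasmic tail recruits phosphatases that dampen receptor signalling, and it takes part in the growth of vessels driven by VEGF. After laser, monocytes and microglia enter the lesion, the RPE and fibroblasts deposit matrix, and choroidal endothelium sprouts through the break. Genes were therefore grouped by tissue of origin and by pathway, in 19 tissue lists and 19 pathway lists with 620 distinct genes.

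No gene passed the threshold for the interaction. At an adjusted p under 0.05 (limma with Benjamini-Hochberg adjustment over 19950 genes), 0 genes (0%) were called, and the lowest adjusted p was 0.640. At an unadjusted p under 0.05 there were 1241 genes (6.22%), of which 757 (3.79%) had an interaction above 0 and 484 (2.43%) below 0. Values above 0 made up 50.5% and values below 0 49.5% of all genes, and the median interaction of all genes was 0.01. This count of 1241 depended on single libraries. Leaving out Ceacam1-/- library 23 without laser gave 3891 genes, and leaving out wild type library 21 without laser gave 492. It was 2226 without wild type library 26, 2049 without Ceacam1-/- library 4, 813 without wild type library 27, 768 without Ceacam1-/- library 14, 729 without Ceacam1-/- library 18 and 553 without Ceacam1-/- library 25. The adjusted count stayed 0 in each of these fits.

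The laser response itself was present in both genotypes. In wild type choroids 844 genes were higher and 209 lower with laser (5.28% of the genes tested), and in Ceacam1-/- choroids 413 were higher and 329 lower (3.72%, with 2.07% higher and 1.65% lower), each at an adjusted p under 0.05. Both genotypes called 296 of the higher genes, which is 35.1% of the wild type calls and 71.7% of the Ceacam1-/- calls. Among the shared higher genes the median log2 laser effect was 2.35 in wild type and 1.98 in Ceacam1-/- mice. Of the lower genes 45 were shared, 21.5% of the wild type and 13.7% of the Ceacam1-/- calls. No gene was called in opposite directions. Of the 844 genes called higher in wild type mice, 835 (98.9%) also had a laser effect above 0 in Ceacam1-/- mice. Of the 209 called lower, 200 (95.7%) had one below 0. Over all genes tested the median laser effect in Ceacam1-/- mice was 0.019. The numbers of called genes rested on a few libraries. The Ceacam1-/- calls numbered 1135 higher and 1353 lower without Ceacam1-/- library 23, 214 and 41 without library 24, 133 and 15 without library 25, and 271 and 195 without library 5. The wild type calls numbered 411 higher and 68 lower without wild type library 21 and 510 and 44 without library 27, and the lower calls alone moved to 61, 128 and 137 without wild type libraries 22, 1 and 2 and to 327 without Ceacam1-/- library 23. Without Ceacam1-/- libraries 24 and 25 the shared higher genes numbered 171 and 122. The shared lower genes numbered 26, 175, 13 and 5 without Ceacam1-/- libraries 5, 23, 24 and 25 and 28, 17 and 14 without wild type libraries 21, 22 and 27. Leaving out single libraries gave 0 genes called in opposite directions, except for 1 gene without Ceacam1-/- library 23.

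Ceacam1 itself (ENSMUSG00000074272, GRCm39 chr7:25161128-25177257, minus strand) was checked before any other gene. Without laser it had 958, 5027, 1242 and 4596 normalized counts in wild type libraries 21, 22, 26 and 27, and 405, 505, 508 and 1171 in Ceacam1-/- libraries 23, 24, 25 and 28. With laser it ranged from 774 to 8367 (median 996) in wild type and from 67.8 to 905 (median 335) in Ceacam1-/- choroids. The genotypes overlapped in both conditions, but the knockouts were lower on average. The log2 difference between genotypes was -2.17 with laser (two-sided exact permutation test over 11440 splits, p = 0.000175) and -1.95 without laser (70 splits, p = 0.0571, where 0.0286 is the smallest p possible). The interaction of Ceacam1 was -0.21 (SE 0.89) with all libraries and 0.15 without Ceacam1-/- laser libraries 14, 15 and 18, which are described next. A deletion at the start of a gene need not remove reads from the rest of it. The libraries with the most Ceacam1 were also high in genes of surface epithelium. Wild type libraries 19, 22 and 27, with 8367, 5027 and 4596 counts, had mean log2 values of 11.57, 12.99 and 10.41 over the 16 surface epithelium genes, and the 2 Ceacam1-/- libraries with the most Ceacam1, 28 and 15, had 13.70 and 13.67, while the other libraries ranged from 3.03 to 8.45. The part of epithelium in the level of Ceacam1 was not tested. The labelled tissue was checked as well, and all 14 RPE, 13 melanin and 24 endothelial genes tested were above 0 in each of the 24 libraries.

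The medians of many gene lists changed when 3 Ceacam1-/- laser libraries were left out. Rod photoreceptor genes had mean log2 values of 14.45, 13.56 and 14.36 in Ceacam1-/- laser libraries 14, 15 and 18. The other 4 Ceacam1-/- laser libraries ranged from 8.24 to 11.75 and the wild type laser libraries from 8.01 to 12.25. Without laser, rod values were 13.49, 11.03, 8.68 and 12.37 in wild type libraries 21, 22, 26 and 27 and 13.59, 9.64, 7.51 and 9.34 in Ceacam1-/- libraries 23, 24, 25 and 28. Rod genes made up 7.17%, 3.80% and 7.10% of all normalized counts in libraries 14, 15 and 18, beside 0.111% to 1.62% in the other laser libraries, 3.83% in library 21 and 4.11% in library 23. The same 3 libraries were the lowest of all laser libraries in the means of RPE genes (10.37 to 10.98, against 12.18 to 12.87 in the other Ceacam1-/- and 12.03 to 13.67 in the wild type laser libraries), endothelial genes (9.05 to 9.98, 10.77 to 11.21 and 10.46 to 11.54), macrophage and microglia genes (9.18 to 9.74, 11.003 to 11.30 and 10.58 to 11.36) and collagen chains (10.73 to 11.18, 13.07 to 13.25 and 12.46 to 13.16). In bulk tissue, fewer cells of a type and less RNA per cell cannot be told apart. List medians are therefore given with all 24 libraries and without these 3, as are the genes described in most detail. The fit without the 3 was added after the data had been seen. All 3 are Ceacam1-/- laser libraries picked for their values, so leaving them out shifts that group by construction. Unlasered libraries 21 and 23 had rod means near that of library 15 and were kept. Medians without the 3 are therefore descriptions, not tests. When libraries 21 and 23 were left out too, the erythroid median was 1.47 (0.83 without only the 3). That of Schwann cell and myelin genes was 0.47 (-0.077) and that of RPE genes -0.47 (-0.42). Without libraries 14, 15 and 18 the unadjusted count fell to 458 genes, and the adjusted count was 0. The laser calls in Ceacam1-/- mice then numbered 1499 higher and 506 lower, in wild type mice 1543 and 585, with 1055 and 202 shared and 0 in opposite directions. When every library of any group with a rod mean above 13 was left out, which adds libraries 21 and 23, these numbers were 1697, 1226, 1129, 516, 836 and 363, with 0 in opposite directions.

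**Figure D1:**
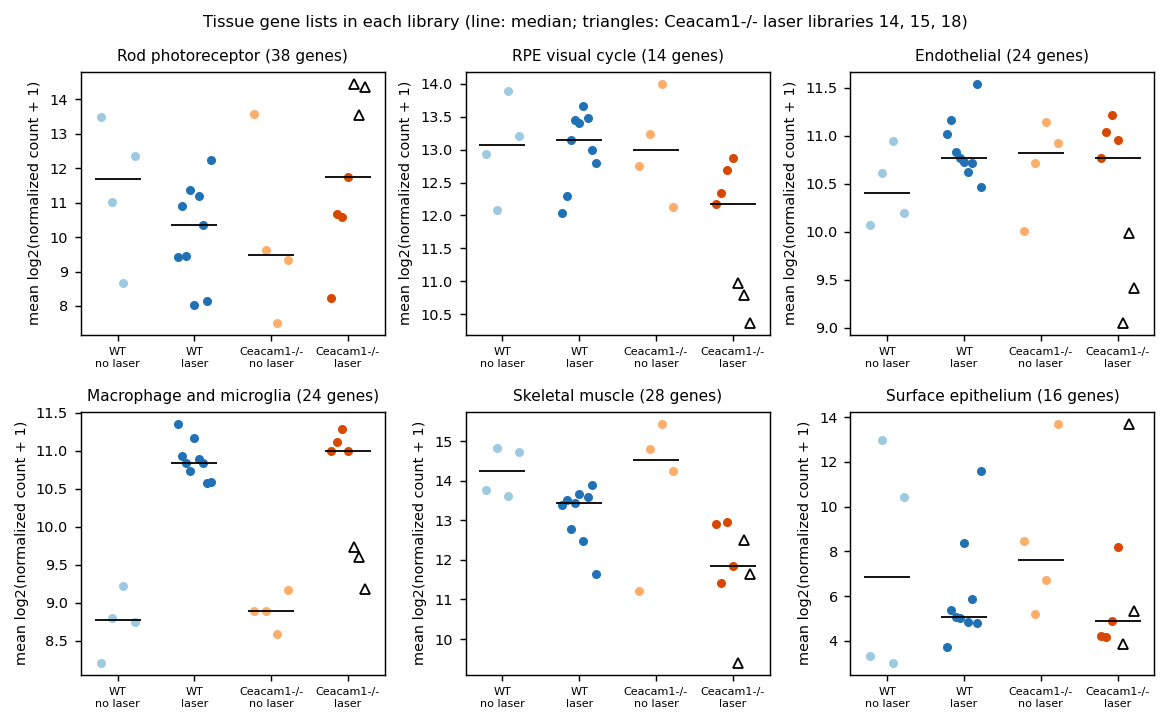
Mean log2(normalized count + 1) over the tested genes of 6 tissue lists, on a separate y axis for each list. Points are libraries of the 4 groups, lines are group medians and open triangles are Ceacam1-/- laser libraries 14, 15 and 18, which among the laser libraries lie highest in rod genes and lowest in RPE, endothelial and macrophage genes.

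With all libraries, photoreceptor and inner retinal genes had the highest interaction medians of the 38 lists. Without libraries 14, 15 and 18 the lens median (1.33) lay above the cone median (1.18). Rods turn light into a fall of cyclic GMP through transducin (Gnat1 encodes its alpha subunit) and a phosphodiesterase, and the rod list held genes of this cascade and its regulators. All 38 rod genes tested had an interaction above 0, with a median of 3.49 and a range of 0.88 to 4.32. The median laser effect was -1.31 in wild type and 2.07 in Ceacam1-/- choroids, and 0 rod genes passed the adjusted threshold for laser in either genotype. At an unadjusted p under 0.05 there were 4 of 38 (Guca1a, Guca1b, Pdc and Impg2), beside 3.79% of all genes. Gnat1, an abundant member, had 142058, 24741, 3082 and 69920.5 normalized counts in wild type libraries 21, 22, 26 and 27, and 152477, 7114, 1053 and 4627 in Ceacam1-/- libraries 23, 24, 25 and 28. With laser it ranged from 2169 to 54623 (median 13459) in wild type choroids and from 2012 to 281431 (median 35109) in Ceacam1-/- choroids, where libraries 14, 15 and 18 held 230772, 144844 and 281431. The groups overlapped widely, and library 23 alone among the unlasered knockouts was as high as the wild type library 21. The interaction of Gnat1 was 3.70 (SE 1.85, limma adjusted p = 0.640). Pdc, phosducin, which binds transducin subunits, gave 3.99 (SE 1.76). Without libraries 14, 15 and 18 the rod median was 1.73, with 36 of 38 genes above 0, and Gnat1 was 1.93.

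Cone genes went in the same direction. All 11 had an interaction above 0 (median 2.80; 1.18 without the 3 libraries, again 11 of 11), and 4 of 11 had an unadjusted p under 0.05 (Opn1sw, Arr3, Gnat2 and Pde6h), beside 3.79% of all genes. The laser effect of Opn1sw, the short-wavelength cone pigment, was -1.81 in wild type and 2.70 in Ceacam1-/- mice. Pde6h, the inhibitory subunit of the cone phosphodiesterase, ranged from 34.1 to 843 (median 127) in wild type and from 65.2 to 5706 (median 620.3) in Ceacam1-/- laser libraries, and its 3 highest values of all 24 libraries, 5706, 3918 and 2177, were those of libraries 14, 18 and 15. Its interaction of 4.74 (SE 1.90, limma adjusted p = 0.640) was the highest of the list and became 3.15 without them. Of 26 inner retinal neuron genes, 24 lay above 0 (median 2.96; 1.45 without the 3 libraries). Pou4f2, a transcription factor of ganglion cells, had 192, 51.3 and 90.4 counts in libraries 14, 15 and 18, and between 0 and 47.4 in all others. Nefl, a neurofilament of ganglion cell axons, gave 3.05 (SE 1.61). In contrast, Trpm1, which depolarizing bipolar cells share with pigment cells, gave 0.34 (SE 0.42). Genes of the Mueller glia list, of which Rlbp1 was the most abundant, had a median of 0.085 with 4 of 8 above 0. It was -0.30 with 3 of 8 above 0 without the 3 libraries. Leaving out libraries 12, 14, 16, 18, 21, 24 or 28 alone also put this median below 0 (down to -0.14). Whether other cells of the tissue, such as the RPE, express members of this list was not tested. In this list 1 of 8 genes, Sox9, had an unadjusted p under 0.05 (-0.83), beside 2.43% of all genes below 0. With the rod mean of each library as a covariate of the fit, which removes the variation of rod genes by its construction, the rod median was 0.051, the cone median 0.22 the inner retinal median -0.17 and the Mueller glia median -0.47. Whether retina left on the choroid at dissection takes part in these values was not tested.

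Promoters of rod genes were searched for TAATCC, a word bound by CRX and OTX2, homeodomain factors of photoreceptors. TAATCC, or its reverse complement GGATTA, stood in 12 of the 27 rod promoters found (44.4%), in 2 of 7 cone promoters and 3 of 12 RPE promoters, beside 1935 of 27025 promoters of all genes (7.16%), each searched over 300 bases from 250 before to 50 after the start site on both strands. These are RefSeq promoters of GRCm38.p6, an older build than the GRCm39 annotation of the expression values. Those of Sag, rod arrestin, and Gngt1, the gamma subunit of rod transducin, are shown as examples, both on the plus strand (Sag chr1:87803430-87803729, Gngt1 chr6:3993758-3994057), with GGATTA in capitals. Sag had an interaction of 3.46 and Gngt1 of 3.04. A match is a description of the sequence and not a site shown to be bound.
Sag: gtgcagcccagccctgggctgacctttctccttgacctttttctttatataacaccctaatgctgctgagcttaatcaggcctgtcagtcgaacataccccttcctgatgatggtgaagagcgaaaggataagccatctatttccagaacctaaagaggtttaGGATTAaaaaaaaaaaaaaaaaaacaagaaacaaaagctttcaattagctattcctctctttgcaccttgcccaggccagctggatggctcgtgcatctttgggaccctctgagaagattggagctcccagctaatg
Gngt1: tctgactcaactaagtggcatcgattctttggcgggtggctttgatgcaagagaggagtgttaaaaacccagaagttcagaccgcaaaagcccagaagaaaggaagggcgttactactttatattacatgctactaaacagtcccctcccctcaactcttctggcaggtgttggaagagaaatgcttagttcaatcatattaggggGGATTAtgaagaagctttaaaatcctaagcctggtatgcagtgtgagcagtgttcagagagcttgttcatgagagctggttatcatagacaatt

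**Figure D2:**
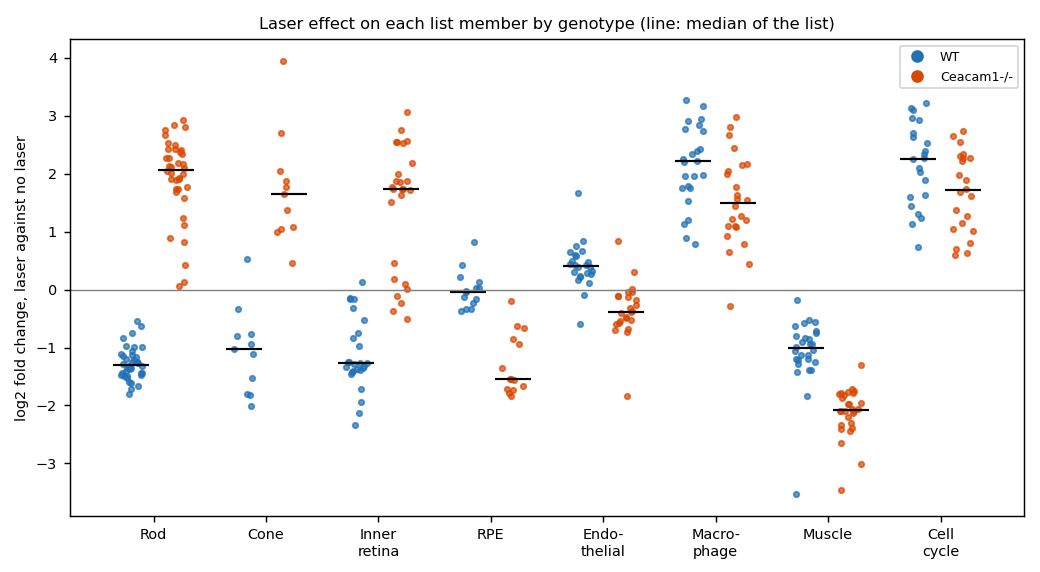
Log2 laser effect (laser against no laser) of each tested gene of 8 lists in wild type (blue) and Ceacam1-/- (orange) mice, with the list median as a line. Rod, cone and inner retinal genes lie mostly below 0 in wild type and above 0 in Ceacam1-/- mice, and macrophage and cell cycle genes lie above 0 in both, except for 1 macrophage gene in Ceacam1-/- mice.

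RPE genes lay on the other side of 0. The RPE recycles retinal and carries retinol and thyroid hormone, and all 14 genes of its visual cycle and transport had an interaction below 0 (median -1.49, range -1.94 to -0.17). The median laser effect was -0.036 in wild type and -1.54 in Ceacam1-/- choroids. Rdh5, Ttr and Best1 had an unadjusted p under 0.05 (3 of 14, beside 2.43% of all genes). Ttr, transthyretin, was the most abundant and had 113088, 64797, 223595 and 127750.0 normalized counts in wild type and 91868, 198028, 485527 and 112724 in Ceacam1-/- libraries without laser. After laser it ranged from 80150.3 to 259891 (median 134473) in wild type and from 15912 to 128723 (median 75382) in Ceacam1-/- choroids, and the 3 lowest values were 32229, 23527 and 15912 in libraries 14, 15 and 18. Its interaction was -1.94 (SE 0.77, limma adjusted p = 0.640) with all libraries and -1.01 without those 3. Rgr, an opsin of the RPE, had -1.49 (SE 0.86) and -0.34 without them. The list median without the 3 libraries was -0.42, with 0 of 14 genes above 0, so the direction was kept and the size was not. Melanin synthesis genes, shared by RPE and choroidal melanocytes, did not keep their direction. Their median was -1.06 with 0 of 13 above 0, and 0.17 with 11 of 13 above 0 without the 3 libraries. Pmel, which forms the fibrils of melanosomes, had 933, 4936 and 1117 counts in libraries 14, 15 and 18 and at least 5586 in all others, and its interaction went from -1.10 to 0.68. Dct, dopachrome tautomerase, went from -1.16 to 0.052.

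Vascular genes had interaction medians below 0 that depended on the same libraries. All 24 endothelial genes had an interaction below 0 (median -0.80), with median laser effects of 0.41 for wild type and -0.38 for Ceacam1-/- choroids. Of these, 0 of 24 had an unadjusted p under 0.05, beside 2.43% of all genes below 0. Plvap, which forms the diaphragms of fenestrated choriocapillaris, ranged from 7067 to 15719.9 (median 9776) in wild type and from 1051 to 14626 (median 7468) in Ceacam1-/- laser libraries, and the values of libraries 14, 15 and 18 were 1051, 5227 and 1939. The interaction of Plvap was -1.12 (SE 0.71) and -0.13 without these libraries. Emcn, endomucin, went from -1.01 to -0.037, and Robo4, an endothelial guidance receptor, from -1.09 to -0.44. The endothelial median without the 3 libraries was -0.11, with 7 of 24 above 0. Pericyte and smooth muscle genes had a median of -0.85 (0 of 14 above 0) and -0.058 (5 of 14) without them, and Acta2, smooth muscle actin, went from -0.90 to -0.0047. VEGF ligands and receptors had a median of -0.53 (0 of 10 above 0) and -0.073 without the 3 libraries. In this family Vegfa, the ligand that drives choroidal sprouting, was lower with laser in both genotypes, by a log2 difference of -0.88 (SE 0.24, limma adjusted p = 0.0296) in wild type and -1.06 (SE 0.25, adjusted p = 0.0181) in Ceacam1-/- mice, and its interaction was -0.18 (SE 0.34). Flt4, VEGF receptor of lymphatic and sprouting endothelium, was the family's only member with an unadjusted p under 0.05 (1 of 10, beside 2.43% of all genes below 0). Its interaction was -1.01 (SE 0.45), and -0.41 without the 3 libraries.

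Angptl4, a secreted lipase inhibitor that responds to hypoxia and fasting, had the lowest p of the angiopoietin and Tie list. Being chosen by that rank, its values and p are a description. Without laser it had 165, 604, 771 and 263 normalized counts in wild type and 337, 778, 1291 and 981 in Ceacam1-/- libraries. With laser it ranged from 855 to 2841 (median 2047) in wild type and from 414 to 1726 (median 1187) in Ceacam1-/- choroids. It rose with laser in wild type mice (log2 2.31, SE 0.46, limma adjusted p = 0.00328) and gave 0.18 (SE 0.48, adjusted p = 0.863) in Ceacam1-/- mice. The difference between both effects was -2.13 (SE 0.66, limma adjusted p = 0.640) and -1.41 without libraries 14, 15 and 18. The list had a median of -0.83 with 0 of 8 above 0, and 0.037 with 5 of 8 above 0 without those libraries.

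Many macrophage and microglia genes rose with laser in both genotypes. In wild type choroids 20 of 24 were higher at an adjusted p under 0.05 and in Ceacam1-/- choroids 12 of 24, beside 4.23% and 2.07% of all genes, with median log2 effects of 2.21 and 1.498. Lyz2, lysozyme, was the most abundant member, and it rose by 2.74 (adjusted p = 0.000129) and 2.44 (adjusted p = 0.00193) on the log2 scale. The interaction median was -0.66, with 1 of 24 above 0 and 3 of 24 at an unadjusted p under 0.05 (Itgb2, Csf1r and Trem2, beside 2.43% of all genes). Trem2, a lipid receptor of activated microglia, had 135, 144, 376 and 129 counts in wild type and 325, 237, 303 and 354 in Ceacam1-/- libraries without laser, and ranged from 762 to 2015 (median 1121) and from 242 to 2047 (median 918) with laser. Of the Ceacam1-/- laser values, those of libraries 14, 15 and 18 were 686, 468 and 242 and the other 4 lay between 918 and 2047. The interaction of Trem2 was -1.39 (SE 0.59) and -0.68 without the 3 libraries, that of Ctss, cathepsin S, -0.76 and -0.072, and that of Lyz2 -0.29 and 0.51. The list median without them was 0.0032, with 12 of 24 above 0. Neutrophil genes gave -0.72 and 0.10 (7 genes), and 5 further neutrophil genes, among them Ly6g, Mpo and Elane, were under the minimum mean. Lymphocyte genes gave 0.34 and 1.08, with 10 of 12 and 11 of 13 genes above 0.

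Inpp5d and Rasal3 stood apart within leukocyte receptor signalling. Inpp5d (ENSMUSG00000026288, GRCm39 chr1:87547989-87648230, plus strand) encodes SHIP1, a 5-phosphatase that removes PIP3 in blood cells and thereby limits signalling of immune receptors, and it had the lowest p of all genes with an interaction below 0. It was singled out by that rank, so its values and p are a description. Without laser it had 161, 296, 383 and 221 normalized counts in wild type libraries 21, 22, 26 and 27, and 467, 443, 773 and 863 in Ceacam1-/- libraries 23, 24, 25 and 28, and the genotypes did not overlap. Among all genes tested, 1.32% had no overlap between the genotypes without laser. With laser it ranged from 377 to 797 (median 577) in wild type and from 152 to 601 (median 492) in Ceacam1-/- choroids, with 213, 225 and 152 in libraries 14, 15 and 18 and between 492 and 601 in the other 4. The log2 difference between genotypes was 1.27 without laser and -0.74 with laser. Laser gave 1.21 in wild type (SE 0.33, limma adjusted p = 0.0307) and -0.80 in Ceacam1-/- mice (SE 0.34, adjusted p = 0.188). The interaction was -2.01 (SE 0.47, limma adjusted p = 0.640), it was -1.38 without the 3 libraries, and it lay between -2.21 and -1.29 over all 38 alternatives.

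Rasal3, a Ras GTPase-activating protein of haematopoietic cells, was likewise higher in the unlasered knockouts. Being singled out by its interaction p, its values and p are a description too. It had 12.7, 36, 30 and 17 normalized counts in wild type and 78.8, 89.7, 84 and 100 in Ceacam1-/- libraries without laser, again with no overlap (as in 1.32% of all genes). After laser it ranged from 55.6 to 244 (median 142) in wild type and from 58.6 to 203 (median 121) in Ceacam1-/- choroids. Its laser effect was 2.56 in wild type (SE 0.37, limma adjusted p = 0.000141) and 0.35 in Ceacam1-/- mice (SE 0.39, adjusted p = 0.648), an interaction of -2.21 (SE 0.54) that was -1.72 without the 3 libraries. Ptpn11, which encodes the phosphatase SHP2 that the tail of CEACAM1 recruits, had an interaction of -0.41, also at an unadjusted p under 0.05. Over the 35 genes of the list the median was -0.54 with 3 above 0, and 0.010 with 18 above 0 without the 3 libraries, and those 3 genes were the only members at an unadjusted p under 0.05 (3 of 35, beside 2.43% of all genes below 0). The mean of the macrophage genes overlapped between the genotypes without laser, with log2 values of 8.22, 8.81, 9.22 and 8.75 in wild type and 8.90, 8.90, 8.59 and 9.17 in Ceacam1-/- libraries. The RefSeq promoter of Inpp5d (GRCm38.p6 chr1:87620062-87620361, plus strand) holds GAGGAAGT, a word bound by the myeloid factor PU.1, which is in capitals here.
Inpp5d: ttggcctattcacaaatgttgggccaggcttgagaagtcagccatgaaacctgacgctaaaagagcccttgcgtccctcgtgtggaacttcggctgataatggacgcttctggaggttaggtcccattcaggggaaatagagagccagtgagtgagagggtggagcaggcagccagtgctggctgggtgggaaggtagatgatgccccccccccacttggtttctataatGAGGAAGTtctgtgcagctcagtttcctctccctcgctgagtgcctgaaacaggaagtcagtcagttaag
GAGGAAGT or its reverse complement ACTTCCTC stood in 4 of 27 leukocyte signalling promoters and 3 of 17 macrophage promoters found, beside 887 of 27025 (3.28%) of all genes.

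**Figure D3:**
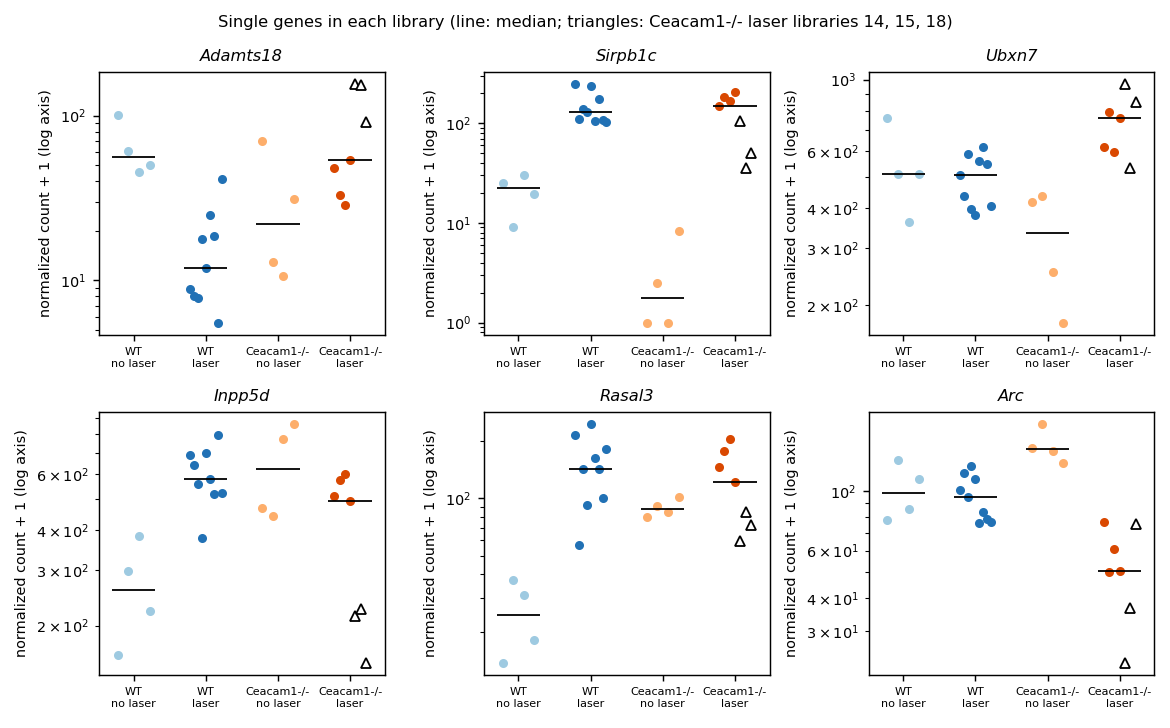
Normalized count + 1 on a log axis of 6 genes chosen for a low p of the interaction, in every library. Lines are group medians and open triangles are Ceacam1-/- laser libraries 14, 15 and 18. Inpp5d and Rasal3 were higher in every Ceacam1-/- than in every wild type library without laser, where 1.32% of all genes had no overlap. Adamts18 was higher in most Ceacam1-/- than wild type libraries with laser.

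Adamts18 had the lowest p of all genes, and being singled out by that rank its values are a description. ADAMTS proteases are secreted metalloproteinases that cut proteoglycans and other matrix proteins, and ADAMTS18 is known for a role in eye development. Adamts18 (ENSMUSG00000053399, GRCm39 chr8:114423758-114575370, minus strand) was a low gene, with a mean of 44.5 normalized counts over the 24 libraries. Without laser it had 100.4, 60.2, 44.1 and 49.3 normalized counts in wild type libraries 21, 22, 26 and 27, and 69.3, 11.9, 9.61 and 30.2 in Ceacam1-/- libraries 23, 24, 25 and 28. With laser it ranged from 4.51 to 39.9 (median 10.8) in wild type choroids, where the highest value was that of library 19, and from 27.6 to 155 (median 53) in Ceacam1-/- choroids. Ceacam1-/- libraries 14, 15 and 18 were the highest, with 155, 153 and 89.9, and the other 4 had 47.2, 32.1, 27.6 and 53. All wild type laser libraries were below all wild type libraries without laser, whereas the Ceacam1-/- groups overlapped. The share of all genes with such a separation by laser was not computed. Laser lowered the gene in wild type mice, with a log2 effect of -2.22 (SE 0.57, limma adjusted p = 0.0234), and gave 1.49 (SE 0.60, adjusted p = 0.158) in Ceacam1-/- mice. Between genotypes the log2 difference was 2.32 with laser and -1.39 without laser. The interaction was 3.71 (SE 0.83, limma adjusted p = 0.640). It was 2.98 without libraries 14, 15 and 18, 2.53 with the rod mean as a covariate, and between 2.53 and 4.24 over the alternatives in which it was tested.

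Most other ADAMTS genes had an interaction below 0 with all libraries. Of 18 ADAMTS genes tested, 3 had an interaction above 0. The median was -0.66, and 0.11 with 10 of 18 above 0 without the 3 libraries. Adamts8, which can restrain vessel growth, was the other member at an unadjusted p under 0.05 (-1.17). That is 1 of 18 in each direction, beside 3.79% of all genes above 0 and 2.43% below 0. Adamts1, an abundant aggrecanase, gave -0.20 (SE 0.41). Adamts13 was under the minimum mean. The AP-1 word TGANTCA, in which N is any base, stood in 0 of the 10 ADAMTS promoters found and in 3 of 15 of the matrix metalloproteinase list, beside 7.93% of all promoters. Matrix metalloproteinases and their TIMP inhibitors had a median of -0.45 (6 of 20 above 0) and 0.38 (17 of 20) without the 3 libraries. Here 2 of 20 genes had an unadjusted p under 0.05, both above 0 (beside 3.79% of all genes), the stromelysin Mmp3 (2.20) and the membrane-anchored Mmp17 (1.69, SE 0.63; 1.52 without the 3 libraries). Collagen chains gave -0.63 (3 of 18 above 0) and 0.27 (14 of 18), and scleral and stromal fibroblast genes -0.041 (7 of 16) and 1.01 (16 of 16), so the medians of both lists changed sign between the fits. The fibroblast median was also above 0 without library 1, 3, 14, 15, 16, 18, 21, 24 or 28 alone (up to 0.34). Col1a1, the chain of type I collagen that scleral fibroblasts secrete, went from -0.084 (SE 0.95) to 1.27. Col4a4, a basement membrane chain, was the only collagen at an unadjusted p under 0.05 (1 of 18, beside 2.43% of all genes below 0). Its interaction was -1.42, and -0.71 without the 3 libraries.

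Matricellular genes, which modulate how cells bind matrix, rose with laser in 6 of 11 cases in wild type and 3 of 11 in Ceacam1-/- choroids at an adjusted p under 0.05, beside 4.23% and 2.07% of all genes. Spp1, osteopontin, had 4259, 5760.4, 10163 and 3125 counts in wild type and 4078, 7729, 4049 and 7921 in Ceacam1-/- libraries without laser, and ranged from 69316 to 250533 (median 192190.0) and from 24734 to 239455 (median 154923) with laser. It rose by 4.92 (SE 0.47, limma adjusted p = 9e-07) and 4.22 (SE 0.49, adjusted p = 3.49e-05) on the log2 scale. Its interaction was -0.70 (SE 0.68) and 0.071 without the 3 libraries. Postn, periostin, a product of activated fibroblasts, rose by 3.25 in wild type (adjusted p = 0.000999) and gave 1.39 in Ceacam1-/- mice (adjusted p = 0.187). It was named for its low interaction p, so its values and p are a description. It ranged from 4642 to 36299 (median 15107) in wild type and from 957 to 7932 (median 5884) in Ceacam1-/- laser libraries, and 957, 1635 and 1979 belonged to libraries 14, 15 and 18. Its interaction was -1.86 (SE 0.82, limma adjusted p = 0.640) and -0.91 without them. All 11 matricellular genes had an interaction below 0 (median -0.47), and 9 of 11 were above 0 without the 3 libraries (median 0.21). TGF-beta ligands and receptors gave -0.25 (4 of 14 above 0) and 0.22 (11 of 14).

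Part of the inflammatory genes rose with laser in both genotypes. Of 19 complement genes, 8 rose in wild type and 5 in Ceacam1-/- choroids, beside 4.23% and 2.07% of all genes, and the interaction median was -0.31 (0.15 without the 3 libraries). C4b, which tags targets in the classical pathway, was the member of lowest p and was chosen for it. It had 1116, 1473, 1637 and 1431 counts in wild type and 4516, 2248, 2503 and 2669.9 in Ceacam1-/- libraries without laser, which did not overlap (as in 1.32% of all genes), and ranged from 1437 to 3092 (median 1654) and from 845 to 2679 (median 1399.8) with laser. Its laser effect was 0.38 in wild type (limma adjusted p = 0.44) and -0.997 in Ceacam1-/- mice (adjusted p = 0.0496), an interaction of -1.38 (SE 0.39) that was -0.94 without the 3 libraries. Acute phase and STAT3 genes had 8 of 16 risen in wild type and 6 of 16 in Ceacam1-/- mice (again beside 4.23% and 2.07%), an interaction median of -0.27 (-0.25 without the 3 libraries, -0.077 with the rod covariate, -0.49 without wild type library 27 and -0.15 without Ceacam1-/- library 14), and 3 of 16 members below 0 at an unadjusted p under 0.05 (Serpina3n, Osmr and Osm), beside 2.43% of all genes. Serpina3n, a serine protease inhibitor of reactive glia, rose by 4.80 in wild type (adjusted p = 1.5e-07) and 3.52 in Ceacam1-/- mice (adjusted p = 3.49e-05), with an interaction of -1.28 (SE 0.55; -0.76 without the 3 libraries).

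Chemokines had 13 of 22 genes risen in wild type and 11 of 22 in Ceacam1-/- choroids, beside 4.23% and 2.07% of all genes. Their interaction median of -0.20 (7 of 22 above 0) was 0.26 (16 of 21) without the 3 libraries, 0.30 with array weights, which lower the weight of libraries of high variance, and 0.027 without wild type library 21. Ccl17, a ligand of CCR4 that dendritic cells release, had an interaction of -1.99. It was the only chemokine at an unadjusted p under 0.05 (1 of 22, beside 2.43% of all genes below 0). Interleukin-1 and inflammasome genes gave -0.42 (3 of 11 above 0) with Il1r1 as the only such member (-0.78, 1 of 11, again beside 2.43%). Their median was -0.13 without the 3 libraries and 0.50 with array weights. Interferon-stimulated genes gave -0.12 (4 of 15 above 0), 0.11 (10 of 15) without the 3 libraries and 0.49 with array weights. For their interaction, 0 of 15 had an unadjusted p under 0.05, beside 6.22% of all genes. Their median was also above 0 without library 14, 18, 21 or 28 alone (0.093 to 0.25). MHC class II genes lay below 0 with all libraries (0 of 8 above 0, median -0.70), with a median of -0.25 (1 of 8) without the 3 libraries and 0.0037 (4 of 8) with the rod covariate. Of the 8 genes, 6 rose in wild type and 0 in Ceacam1-/- mice at an adjusted p under 0.05, beside 4.23% and 2.07% of all genes. The interaction of Cd74, the invariant chain, was -0.68 (SE 0.54), and -0.15 without the 3 libraries. Only H2-Oa had an unadjusted p under 0.05 for the interaction (-1.72, 1 of 8, beside 2.43% of all genes below 0). Cd74 rose by 1.49 in wild type (adjusted p = 0.0196) and gave 0.81 (adjusted p = 0.248) in Ceacam1-/- mice. Coagulation genes gave -0.49 with 0 of 9 above 0 and 0.18 with 6 of 9 without the 3 libraries. Mast cell genes gave -0.25 (3 of 7 above 0) and 0.44 (6 of 7), and erythroid genes -0.19 (1 of 5) and 0.83 (5 of 5), so that both medians turned without the 3 libraries. They were also above 0 without single libraries, among mast cell genes without library 14, 21 or 24 (up to 0.078) and among erythroid genes without library 14, 15, 21, 22, 23 or 25 (up to 0.30).

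Genes of muscle and nerve, tissues that adjoin the eyeball, also had medians below 0 with all libraries. Skeletal muscle genes had a median interaction of -1.06, with 1 of 28 above 0. It was -0.53 without the 3 libraries, 0.15 with the rod covariate, and -1.96 and -0.51 without Ceacam1-/- libraries 23 and 25. Median laser effects were -1.01 in wild type and -2.08 in Ceacam1-/- choroids. Of these muscle genes, 0 of 28 had an unadjusted p under 0.05, beside 2.43% of all genes below 0. Their list means varied between 13.60 to 14.82 in wild type and 11.22 to 15.43 in Ceacam1-/- libraries without laser. Acta1, skeletal actin, gave -1.14 (SE 0.97) and -0.47 without the 3 libraries, and -2.03 and -0.59 without libraries 23 and 25. At the neuromuscular junction the median was -0.95 (-0.62 without the 3 libraries), and Chrng, Dok7 and Rapsn had an unadjusted p under 0.05 (3 of 11, beside 2.43% of all genes). Chrng, the fetal subunit of the acetylcholine receptor that denervated and regenerating muscle expresses, had 14.1, 24.6, 0.763 and 4.98 normalized counts in wild type and 0, 19.7, 21.4 and 8.3 in Ceacam1-/- libraries without laser. With laser it ranged from 38.4 to 1481 (median 377) and from 7.7 to 124 (median 54.7). It rose by 5.62 in wild type (SE 0.95, limma adjusted p = 0.000704) and gave 2.54 in Ceacam1-/- mice (SE 0.99, adjusted p = 0.147), on a scale that understates changes of so low a gene. Chrng was named for its low interaction p, so its values and p are a description. The interaction of -3.07 (SE 1.37) was -2.61 without the 3 libraries. Chrna1, the alpha subunit of that receptor, gave -1.87 (SE 1.15), -3.02 without Ceacam1-/- library 23 and -1.10 without wild type library 26. Ankrd1, a stretch-induced nuclear protein of muscle and fibroblasts, was among the 12 genes of lowest p below 0, so its values and p are a description. It had 66.2, 112, 117 and 117 counts in wild type and 40.2, 306, 335 and 151 in Ceacam1-/- libraries without laser, ranged from 200.2 to 5734 (median 804) in wild type and from 87 to 606 (median 145) in Ceacam1-/- laser libraries, and gave 3.49 (adjusted p = 0.00414) and 0.020 (adjusted p = 0.989) with laser. Its interaction was -3.47 (SE 1.03) and -3.10 without the 3 libraries. Schwann cell and myelin genes had a median of -0.83 with all libraries, -0.077 without the 3 libraries and 0.47 (9 of 11 above 0) without all libraries of a rod mean above 13, so the direction turned. Without Ceacam1-/- library 23 alone, which had the highest Schwann cell mean of its group, it was -0.53, and without Ceacam1-/- library 24 it was -1.30. Sox10 and S100b had an unadjusted p under 0.05 (-1.53 and -1.69; 2 of 11, beside 2.43% of all genes).

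Lens and surface epithelium genes varied more between libraries of a group than between groups. Lens genes had a median of 0.28 (14 of 21 above 0) and of 1.33 (17 of 21) without the 3 libraries. It was 2.07 without Ceacam1-/- library 24 and -1.06 without wild type library 22, the unlasered libraries with the most Cryaa, and it was also below 0 without library 6, 23, 25 or 28 alone. Cryaa, alpha-crystallin, had 156, 7643, 71.5 and 329 counts in wild type and 112, 15726, 49.9 and 119 in Ceacam1-/- libraries without laser. Its interaction of 0.21 had an SE of 2.10. In surface epithelium the median was -1.01 (6 of 16 above 0; -2.39 without the 3 libraries), and it was 2.68 with array weights and 0.35, 0.21 and 0.37 without libraries 21, 26 and 28. Krt12, the keratin of corneal epithelium, was at 175232, 61194 and 178593 in libraries 22, 28 and 15, of 3 different groups, and at most 347 in the others, which gave an interaction of -0.21 with an SE of 3.92.

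Cell cycle genes rose with laser in 16 of 22 cases in wild type and 3 of 22 in Ceacam1-/- choroids at an adjusted p under 0.05, beside 4.23% and 2.07% of all genes. The median laser effects were 2.26 and 1.71, and the interaction median was -0.47 (-0.070 without the 3 libraries, 0.21 without Ceacam1-/- library 28 and 0.40 with array weights). For the interaction, 0 of 22 had an unadjusted p under 0.05, beside 6.22% of all genes. Cdk1, the kinase of mitotic entry, rose by 1.89 in wild type (limma adjusted p = 0.00579) and gave 0.71 in Ceacam1-/- mice (adjusted p = 0.357). Its unlasered Ceacam1-/- values were 152, 299, 409.8 and 828, of which the highest belonged to library 28, and the interaction was -1.18 (SE 0.58; -0.66 without the 3 libraries). Hypoxia and glycolysis genes gave 0.11 (10 of 17 above 0) and -0.10 (8 of 17) without the 3 libraries, and -0.024 without library 18 alone. Oxidative phosphorylation gave -0.17 (2 of 21) and -0.19 (0 of 21), and 0.14 without Ceacam1-/- library 25. Both lists had no member at an unadjusted p under 0.05 (again beside 6.22% of all genes). Immediate early genes had a median of -0.13 (8 of 18 above 0), 0.12 (16 of 18) without the 3 libraries and 0.34 without Ceacam1-/- library 28, and it was above 0 also without library 14, 18 or 21 alone. Fosl1, an AP-1 subunit, was the only member at an unadjusted p under 0.05 (-2.30, 1 of 18, beside 2.43% of all genes below 0).

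**Figure D4:**
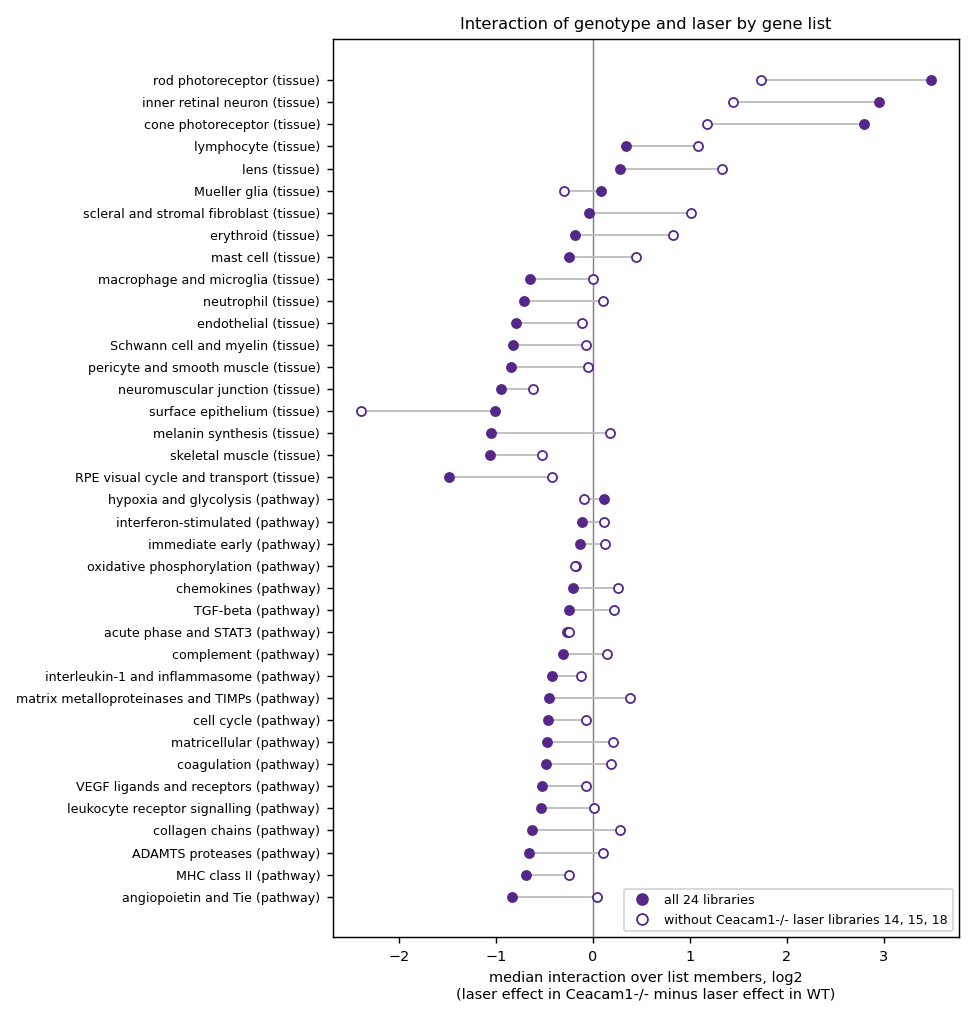
Median interaction (log2 laser effect in Ceacam1-/- minus wild type mice) over the tested genes of each of the 38 lists, with all 24 libraries (filled) and without Ceacam1-/- laser libraries 14, 15 and 18 (open). Most list medians lie below 0 with all libraries and are higher without the 3, while rod, cone and inner retinal medians are lower without the 3 and stay above 1.

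Among single genes, the 12 of lowest p in each direction were read in every library, and being chosen by p they serve as a description. Sirpb1c, a receptor of the myeloid SIRP family whose reads may be shared with close paralogs, rose with laser in both genotypes. It had 24.1, 8.18, 29 and 18.6 normalized counts in wild type and 0, 1.49, 0 and 7.4 in Ceacam1-/- libraries without laser, and ranged from 102 to 247 (median 127) and from 34.5 to 206 (median 147) with laser. Its laser effect was 2.89 in wild type (SE 0.53, limma adjusted p = 0.00157) and 5.66 in Ceacam1-/- mice (SE 0.55, adjusted p = 7.53e-06). The lasered genotypes overlapped, and the unlasered did not (as in 1.32% of all genes). Its interaction of 2.78 (SE 0.76) was 3.46 without libraries 14, 15 and 18, in which it was lowest of the Ceacam1-/- laser libraries (105, 34.5 and 49.8), and it depended on the floor, since it was 0.94 with a pseudocount of 10.

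Ubxn7, an adaptor that links ubiquitin ligases to the p97 unfoldase, had 762, 509, 360.3 and 510.2 counts in wild type and 416, 434, 252 and 175 in Ceacam1-/- libraries without laser, and ranged from 378 to 616 (median 505) and from 531 to 969 (median 759.8) with laser. Its laser effect was -0.093 in wild type and 1.26 in Ceacam1-/- mice (SE 0.24, limma adjusted p = 0.00521). The interaction was 1.35 (SE 0.33) and 1.29 without the 3 libraries. The direction was opposite for Arc, an immediate early gene of neurons. It had 76.8, 130.2, 84.6 and 110.0 counts in wild type and 144, 177, 141 and 127 in Ceacam1-/- libraries without laser, and ranged from 74.9 to 123 (median 94.5) and from 21.9 to 75.6 (median 49.2) with laser. It fell in Ceacam1-/- mice by a log2 effect of -1.57 (SE 0.28, limma adjusted p = 0.00327), and gave -0.074 in wild type. The interaction of Arc was -1.50 (SE 0.39) and -1.26 without the 3 libraries.

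Limch1, an activator of non-muscle myosin, fell in Ceacam1-/- mice by 1.05 on the log2 scale (adjusted p = 0.00325) and gave -0.11 in wild type, an interaction of -0.95 (SE 0.26). Apoe, the lipid carrier of macrophages and RPE, had an interaction of -1.60 (SE 0.46; -1.02 without the 3 libraries), and its Ceacam1-/- laser values ranged from 17781 to 58194 (median 45867), all below those of the wild type laser libraries, which ranged from 63957 to 118802 (median 84272), a separation that 0.15% of all genes had. Serpinf2, the inhibitor of plasmin, gave -2.65 (SE 0.78), Gamt, which makes creatine, -1.41 (SE 0.42), Nutf2, a nuclear transport factor, -1.31 (SE 0.36) and Ccdc162 -2.18 (SE 0.57). Above 0 were also Radil, an effector of Rap (1.57, SE 0.42), Pias3, a SUMO ligase and inhibitor of STAT3 (0.97, SE 0.28), Vwc2, an extracellular BMP antagonist (2.60, SE 0.73), Gprin2 (2.64, SE 0.73) and Sbspon (2.57, SE 0.69). The remaining 5 of the 24 were not annotated as protein-coding and had means under 30 normalized counts, namely Rpl17-ps9, Gm43329, 5830444F18Rik, Gm28578 and 4930562F07Rik, with interactions from -5.10 to 4.67. Reads of Rpl17-ps9, a processed pseudogene, can be shared with its parent gene.

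The genotypes differed at an adjusted p under 0.05 in 9 genes with laser (0.0451%, with 0.0351% higher in the knockouts). Without laser 0 genes (0%) passed in this fit, and 263 genes (1.32%) showed no overlap of the 4 libraries against 4. The study itself reported differentially expressed genes between wild type and Ceacam1-/- choroids, using DESeq2 with sex as a covariate. The 0 therefore belongs to the fit used here and does not mean that the unlasered genotypes were alike. At an unadjusted p under 0.05 there were 426 genes (2.14%) without laser. Of these 9 genes, Apoc2 and Mrps12 were lower and Cep95, Meg3, Zfp61, Acrbp, Gm16251, Gm45246 and Tescl higher in Ceacam1-/- choroids. In all 9 the difference without laser had the same sign. Tescl differed by 4.31 with and 2.79 without laser, Gm45246 by 3.80 and 3.97, Gm16251 by 3.34 and 3.09 and Mrps12 by -0.99 and -0.84 on the log2 scale, and their interactions were 1.52 (SE 1.01), -0.17 (SE 0.84), 0.25 (SE 0.91) and -0.15 (SE 0.27). Of the 9, Meg3 and Zfp61 had an unadjusted p under 0.05 for the interaction (both 0.81, SE 0.29 and 0.37). The count of 9 became 0 without libraries 14, 15 and 18, 50, 35 and 16 without wild type libraries 17 and 19 and Ceacam1-/- library 6, and 52 without Ceacam1-/- library 23.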

How the data were processed

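Choroidal RNA libraries were made by the authors from total RNA with SMART-Seq chemistry. Per the study's methods and the submitters' processing notes, reads were checked with FastQC 0.11.5, pseudo-aligned to GRCm39 with salmon 1.10.3 and imported into DESeq2 1.44.0, with 1 outlier sample left out by the authors. The deposited signal values are normalized counts, which the authors made by scaling estimated reads with factors for library size and transcript length; the sources used here do not give the libraries over which these were computed. Low values lay within 5% of whole reads in 50.0% to 87.6% of cases per library, so reads were not recovered and no count test was fitted. Depth in reads was not used, and precision was taken from the spread between libraries. Values of no 2 libraries were identical.

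Groups came from the sample titles. After a pseudocount of 1 was added and log2 taken, limma 3.58.1 (R 4.3.3) with a mean-variance trend was fitted in 1 model of 4 groups over genes with a mean of at least 10. P-values were adjusted by the Benjamini-Hochberg method over all 19950 genes, with a threshold of 0.05. Ceacam1 was in addition tested by exact permutation (two-sided) of genotype within each laser condition. The fit was tested on simulated data. The sex of the mice is a covariate in the study but is not in the labels; as an alternative, the log2 sum of 4 Y-linked genes (Uty, Kdm5d, Eif2s3y and Ddx3y) entered as a covariate. The fit was also run with a pseudocount of 0.5 or 10, a minimum mean of 50 or none, upper-quartile or quantile scaling, robust variances, no trend, array weights, rod and muscle list means as covariates, and leaving out each library. Leaving out Ceacam1-/- laser libraries 14, 15 and 18, or every library with a rod mean above 13, was chosen after seeing the data. The question, the 38 lists and the genes given with it (Adamts18 and Inpp5d) were chosen with earlier results of these data known, so lists have no test. Of 636 list entries, 618 were tested, 15 were under the minimum mean and 3 symbols were not matched. Genes were named as Ceacam1, Adamts18 and Inpp5d, the 12 of lowest p in each direction, and in each list the 2 most abundant members and the member of lowest p; Vegfa, Trem2 and other members named outside this rule were chosen after their values were seen, and some genes that the rule names are not reported here. Annotation matched 99.1% of the identifiers. Promoters came from RefSeq (GRCm38.p6, the entry listed earliest for each symbol). Tables were made with pandas 2.3.3, scipy 1.17.1 and numpy 2.4.6 under Python 3.11.15, and figures with matplotlib 3.10.9.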

Additional observations from a re-analysis of the deposited data

Results flagged for a closer look

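Of 400 groups of values examined, 30 (7.5%) held a library far from the rest of its group, and chance alone gives about 1 group in 20. Genes of neighbouring tissues made up many of these. Krt12 was at 178593 normalized counts in Ceacam1-/- laser library 15 (0 to 53.9 in the other 6), at 175232 in unlasered wild type library 22 (3.02 to 15.8 in the other 3), and at 0 in wild type laser library 1 (14.2 to 119 in the others). Cryaa was at 15726 in unlasered Ceacam1-/- library 24 (49.9 to 119 in the others) and at 16.5 in Ceacam1-/- laser library 18 (1925 to 13463), and the lens list means of the same libraries were 9.54 (4.08 to 4.75) and 3.02 (6.76 to 8.89). Ceacam1 was at 8367 in wild type laser library 19 (774 to 1776 in the others). Acta1 was at 3804 in Ceacam1-/- laser library 14 (20915 to 69017), and that library had a neutrophil list mean of 4.99 (6.29 to 7.20). Opn1sw was at 65.1 in Ceacam1-/- laser library 4 (1652 to 16537).

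Pigment genes stood out in 3 libraries. Dct was at 55226 in unlasered wild type library 26 (22230.4 to 25459), where the melanin list mean was 12.37 (11.12 to 11.26), Pmel was at 5586 in wild type laser library 17 (14326 to 34627), and the melanin list mean was 10.90 in unlasered Ceacam1-/- library 23 (11.65 to 11.76). Library 23 also had the highest Schwann cell and myelin mean of its group, 11.64 (10.19 to 10.20), and the lowest VEGF mean, 9.83 (10.81 to 10.93). Trem2 was at 376 in unlasered wild type library 26 (129 to 144). Unlasered Ceacam1-/- library 28 lay far above the rest of its group in 3 list means, with 9.24 for cell cycle (6.07 to 6.37), 8.32 for interleukin-1 and inflammasome (6.08 to 6.29) and 10.57 for interferon-stimulated genes (9.10 to 9.22), while unlasered wild type library 21 had an interferon-stimulated mean of 8.03 (9.16 to 9.33). Wild type laser library 12 had a Mueller glia mean of 9.81 (11.34 to 11.97), and wild type laser library 2 a complement mean of 9.68 (10.14 to 10.56).

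Among genes of low p, Ankrd1 was at 606 in Ceacam1-/- laser library 7 (87.0 to 194) and at 66.2 in unlasered wild type library 21 (112 to 117), and Serpinf2 was at 28.1 in Ceacam1-/- laser library 4 (3.97 to 8.75). Gm28578 was at 0 in wild type laser library 17 (3.93 to 21.9), at 4.48 in unlasered wild type library 26 (24.3 to 31.2) and at 13.4 in unlasered Ceacam1-/- library 23 (2.08 to 2.995).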

How the results depend on the processing

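The adjusted count of the interaction was 0 in all 38 alternatives, with a lowest adjusted p of any gene of 0.158. The unadjusted count of 1241 was 2270 with no filter on low genes, 2591 with array weights, 779 with the Y-linked covariate, 321 with the rod covariate, 566 with the muscle covariate, 458 without Ceacam1-/- laser libraries 14, 15 and 18, and 492 to 3891 when single libraries were left out. The rod median of 3.49 was 0.051 with the rod covariate and 2.504 to 4.82 without single libraries. Endothelial and macrophage medians of -0.80 and -0.66 were -0.029 and -0.11 with the rod covariate, -0.11 and 0.0032 without the 3 libraries, and -0.22 and 0.14 without all libraries of a rod mean above 13, where the RPE median of -1.49 was -0.47 (-0.42 without the 3). Leaving out single libraries gave -1.78 to -1.12 for RPE, -1.10 to -0.57 for endothelial and -0.83 to -0.44 for macrophage genes. When single libraries were left out, the rod, cone, inner retinal, RPE, endothelial, macrophage and MHC class II medians moved by less than a factor of 1.5, and each other list median moved by more for at least 1 library. Of 1444 list medians under alternatives, 56 moved by more than 1 SD between libraries. The laser calls, higher and lower, of 844 and 209 in wild type and 413 and 329 in Ceacam1-/- mice were 3238, 3267, 1895 and 1656 with array weights (11 in opposite directions), 871, 484, 773 and 232 with the rod covariate, 1881, 1497, 327 and 18 with the muscle covariate, 668, 125, 368 and 267 with the Y-linked covariate, and 642, 145, 265 and 172 with no filter. The 296 shared higher and 45 shared lower genes were 1444 and 1073 with array weights, 534 and 113 with the rod covariate, 312 and 8 with the muscle covariate and 197 and 20 with no filter. The 9 genotype calls with laser were 439 with array weights, 15 with a pseudocount of 10 and 2 with the muscle covariate. The 0 genotype calls without laser were 11 with array weights, 1 with limma without trend and 1 each without wild type laser library 2 and without unlasered Ceacam1-/- library 28. The causes were not tested.

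Of 62 single genes examined, 14 changed the sign of their interaction in at least 1 alternative, in 56 of 2342 values, and none of them had passed the threshold. Without the 3 libraries these were Ceacam1 (0.15), Dct (0.052), Pmel (0.68), Lyz2 (0.51), Col1a1 (1.27), Spp1 (0.071) and Adamts1 (0.26), and without all libraries of a rod mean above 13 Ceacam1 (0.39), Pmel (0.63), Lyz2 (0.52), Ctss (0.24), Col1a1 (0.89), Spp1 (0.019) and Adamts1 (0.10). With the rod covariate they were Acta2 (0.027), Lyz2 (0.41), Col1a1 (1.22), Spp1 (0.039), Acta1 (0.14), Adamts1 (0.042) and Cd74 (0.066), and with array weights Ceacam1 (0.91), Lyz2 (0.17), Col1a1 (0.57) and Cryaa (-1.89). Krt12 was 0.55 with a pseudocount of 10 and 0.031 with the muscle covariate, Col1a1 0.13 with quantile normalization and 0.48 with the muscle covariate, and Cryaa -0.082 with the Y-linked covariate. When single libraries were left out, Krt12 ranged from -3.81 to 2.34, Cryaa from -1.20 to 2.07, Col1a1 from -0.69 to 0.41, Ceacam1 from -0.59 to 0.20, Vegfa from -0.36 to 0.040 and Adamts1 from -0.30 to 0.018. Without changing sign, Pde6h fell to 3.01 without library 25, Ctss was -0.47 without library 23, Cdk1 -0.77 and Cd74 -0.34 without library 28, Spp1 -0.35 without library 18 and Trpm1 0.13 without library 26. Likewise Plvap was -0.72, Emcn -0.67 and Pmel -0.55 without library 14, and Lyz2 was -0.046 without library 18. In alternatives other than leaving out single libraries, Serpinf2 went as far as -1.45, Gamt -0.81, Apoe -1.01 and Limch1 -0.61. In the same alternatives Radil fell as far as 1.04, Pias3 0.62 and Sbspon 1.60. Adamts18 lay under a minimum mean of 50 and has no value there. No paired analysis was possible because the library numbers are unique and no label links libraries of different groups.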
